A study of Mus musculus with 78 samples.

Results

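The genes described here are 10 members of the circadian clock and its direct outputs: the repressors Per1, Per2, Per3, Cry1 and Cry2, the activator Npas2, the nuclear receptors Nr1d1 and Nr1d2, and the output factors Dbp and Tef. They were chosen by name, as listed clock genes present in both deposited count tables, and are 10 of 55367 gene symbols in those tables. The libraries came from mice without a working Acss2 gene (KO) and wild-type mice (WT), and the product of Acss2 turns acetate, to which the body breaks ethanol down, into acetyl-CoA. The deletion was constitutive, so it was present in every cell from the embryo onward. It was made by CRISPR/Cas9 in C57BL6/J embryos with guides in the introns around exons 3 to 7, and founders were backcrossed for 3 generations. KO and WT mice of both sexes were single-housed adults, their age in weeks is not given in the sources used here, and every one of them drank ethanol, so no group without alcohol enters these comparisons. After 1 week of habituation they had 15% ethanol for 2 h on days 1 to 3 and for 4 h on day 4, in a first week beside water and in a second week alone, with sessions that began 1.0 to 1.5 h into the dark phase.

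In the transcriptional clock, a heterodimer of BMAL1 with CLOCK or its paralog NPAS2 binds E-box sequences and drives the Per and Cry genes, whose proteins return to the nucleus and repress that dimer. REV-ERB alpha and REV-ERB beta, the products of Nr1d1 and Nr1d2, repress Arntl (Bmal1) and other genes through ROR elements, and the PAR-bZIP factors DBP and TEF carry the rhythm to genes with D-boxes. Outside the suprachiasmatic nucleus these transcripts are known to cycle in many brain areas, so their level in a tissue depends on the hour at which it was taken. The hour of tissue collection is not given in the sources used here.

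The feedback among these genes runs through short promoter sequences, and the promoters of 4 members are shown because they hold the elements that link the members to one another. Each line gives the 250 bases upstream of a RefSeq transcription start on GRCm38.p6, 5′ to 3′ on the gene's own strand, with matches in capitals. Those matches are the E-box CACGTG, bound by the NPAS2 or CLOCK dimer, the variant E′-box, read as AACGTG, and the D-box TTATGTAA or TTATGCAA, bound by DBP and TEF.

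Per1, chr11:69098699-69098948, plus strand: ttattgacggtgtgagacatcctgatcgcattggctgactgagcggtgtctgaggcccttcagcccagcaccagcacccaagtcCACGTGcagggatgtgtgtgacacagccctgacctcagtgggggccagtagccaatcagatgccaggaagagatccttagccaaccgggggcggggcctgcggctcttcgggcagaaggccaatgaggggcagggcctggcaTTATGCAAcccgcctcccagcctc
Per3, chr4:151044666-151044915, minus strand: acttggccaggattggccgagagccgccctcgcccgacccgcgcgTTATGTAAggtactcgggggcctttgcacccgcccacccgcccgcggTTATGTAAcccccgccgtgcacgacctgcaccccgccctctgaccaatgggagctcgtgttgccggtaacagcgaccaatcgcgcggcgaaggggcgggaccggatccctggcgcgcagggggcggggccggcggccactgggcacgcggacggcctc
Cry1, chr10:85185055-85185304, minus strand: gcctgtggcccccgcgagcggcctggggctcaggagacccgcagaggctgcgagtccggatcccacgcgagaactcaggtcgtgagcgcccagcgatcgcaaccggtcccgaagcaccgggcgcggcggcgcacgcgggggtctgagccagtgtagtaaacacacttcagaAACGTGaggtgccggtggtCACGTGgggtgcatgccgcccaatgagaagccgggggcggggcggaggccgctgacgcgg
Nr1d1, chr11:98775378-98775627, minus strand: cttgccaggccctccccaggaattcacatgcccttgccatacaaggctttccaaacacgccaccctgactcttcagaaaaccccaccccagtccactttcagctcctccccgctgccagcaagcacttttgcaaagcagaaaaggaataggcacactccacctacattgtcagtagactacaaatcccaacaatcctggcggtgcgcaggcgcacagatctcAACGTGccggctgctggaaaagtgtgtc

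The Per1 promoter held an E-box 166 to 161 bases before the start and a D-box 24 to 17 bases before it. Per3 held 2 D-boxes, Cry1 an E′-box and an E-box, and Nr1d1 an E′-box 28 to 23 bases before its start. Of the 10 genes, 9 matched the table of promoters, with 11 windows, and Per2 did not match. Searched on both strands, the E-box was in 4 of these windows (Cry1, Per1 and both starts of Tef), against 6.021% of all 32851 windows of the same length. The E′-box, CACGTT or AACGTG, was in 3 windows (Cry1, Cry2 and Nr1d1; 3.848% of all windows), and the D-box was in 2 (Per1 and Per3; 1.501%). No member window held TAGGTCA, the core of the ROR element (2.234% of all windows), or the cyclic AMP element TGACGTCA (1.546%). A match describes these letters and shows no binding in the tissues sampled here.

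Poly(A) RNA was counted in 78 libraries from 12 mice, 3 of each sex and genotype, over the amygdala (11 libraries), cortex (11), dorsal hippocampus (12), dorsal striatum (12), prefrontal cortex (8), ventral hippocampus (12) and ventral striatum (12). Of the libraries, 40 were KO and 38 WT, and the prefrontal cortex had 1 male KO library, so no test among males was made there. Totals ran from 4454420 to 14487778 counts in the amygdala, dorsal hippocampus and both striatal regions, and from 629635 to 1228828 in the cortex, prefrontal cortex and ventral hippocampus. Levels are given as CPM, the count of a gene scaled to the total of its library, and on this scale 3 counts equal 0.2071 to 0.6735 CPM in the deeper set and 2.441 to 4.765 CPM in the shallower set. Every member was counted in every library, with a lowest count of 7, for Npas2 in the ventral hippocampus of male WT mouse 13. Acss2 lay between 0.971 and 13.96 CPM in KO libraries and between 35.93 and 73.77 CPM in WT libraries.

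Some libraries went against their labels. The summed level of 5 markers of striatal projection neurons (Drd1, Drd2, Ppp1r1b, Rgs9 and Adora2a) ran from 1421 to 4045 CPM in 19 of the 24 libraries labelled striatal, and from 57.88 to 976.7 CPM in 53 of the 54 others. In the dorsal striatum the libraries of male KO mouse 10 and female WT mouse 23 stood at 217.9 and 118.4 CPM, and their summed cortical markers, 435.8 and 418.1 CPM, lay within the range of the libraries labelled cortex (382.8 to 577.3 CPM). In the ventral striatum those of male KO mouse 10, female WT mouse 11 and male WT mouse 13 stood at 458.9, 609.2 and 149.9 CPM. Conversely, the ventral hippocampus of female KO mouse 6 reached 1703 CPM. These 6 libraries were picked by a threshold of 1000 CPM set after the values were seen. The prefrontal cortex of female KO mouse 5 and the amygdala of female KO mouse 6, at 976.7 and 852 CPM, lay just under it and were kept, and results that rest on the 6 are given with and without them. The prefrontal cortex library of mouse 23, labelled female, had no Xist count and 73.42 CPM of the Y-linked gene Ddx3y, where the other female libraries had at most 1.1 CPM. Leaving it out changed no call of a member in the comparisons recomputed without it.

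Per kilobase of exon, Tef was the most abundant member, with a mean of 54.5 CPM per kb over the 78 libraries, followed by Dbp (36.7), Nr1d1 (30.03), Nr1d2 (24.3), Cry2 (23.1) and Per1 (15.6). Cry1 and Per2 stood at the same level, 9.11 CPM per kb, above Npas2 (7.37) and Per3 (4.93). Exons of Dbp and Nr1d1 overlap exons on the opposite strand, over 539 bases shared with Sphk2 and 263 bases shared with Thra. Those of Cry2 and Tef overlap the noncoding genes D930015M05Rik and Gm17597 over 295 and 193 bases. Because the strand setting of the counting is not given, it is not known how reads from the shared bases of these 4 genes were counted. Their levels, the comparisons made from them and every r with Dbp carry this uncertainty, as do their values per kilobase.

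With all libraries every member but Nr1d1 had its highest mean among the deeper regions in the dorsal striatum. The full order of the regions differed from gene to gene. Npas2 (chr1:39193731-39363236, GRCm38, plus strand), the activator that can replace CLOCK in the forebrain, had the largest ratio between its highest and its lowest region mean. Its level was 18.11 ± 5.14 CPM (SD, n = 12) in the dorsal hippocampus, where libraries ran from 10.55 over a median of 15.67 to 26.27 CPM. In the dorsal striatum it was 45.65 ± 9.06 CPM (n = 12), in the ventral striatum 43.37 ± 16.5 CPM (n = 12) and in the amygdala 37.66 ± 14.8 CPM (n = 11). The dorsal hippocampus was thus the low region among the deeply sequenced ones, and its range did not overlap that of the dorsal striatum. In the shallower set Npas2 stood at 44.02 ± 4.65 CPM in the prefrontal cortex (n = 8), 32.41 ± 5.60 CPM in the cortex (n = 11) and 28.84 ± 13.3 CPM in the ventral hippocampus (n = 12), where single libraries ranged from 6.949 to 51.26 CPM. Because depth separates the sets, tests were made only within each.

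**Figure D1:**
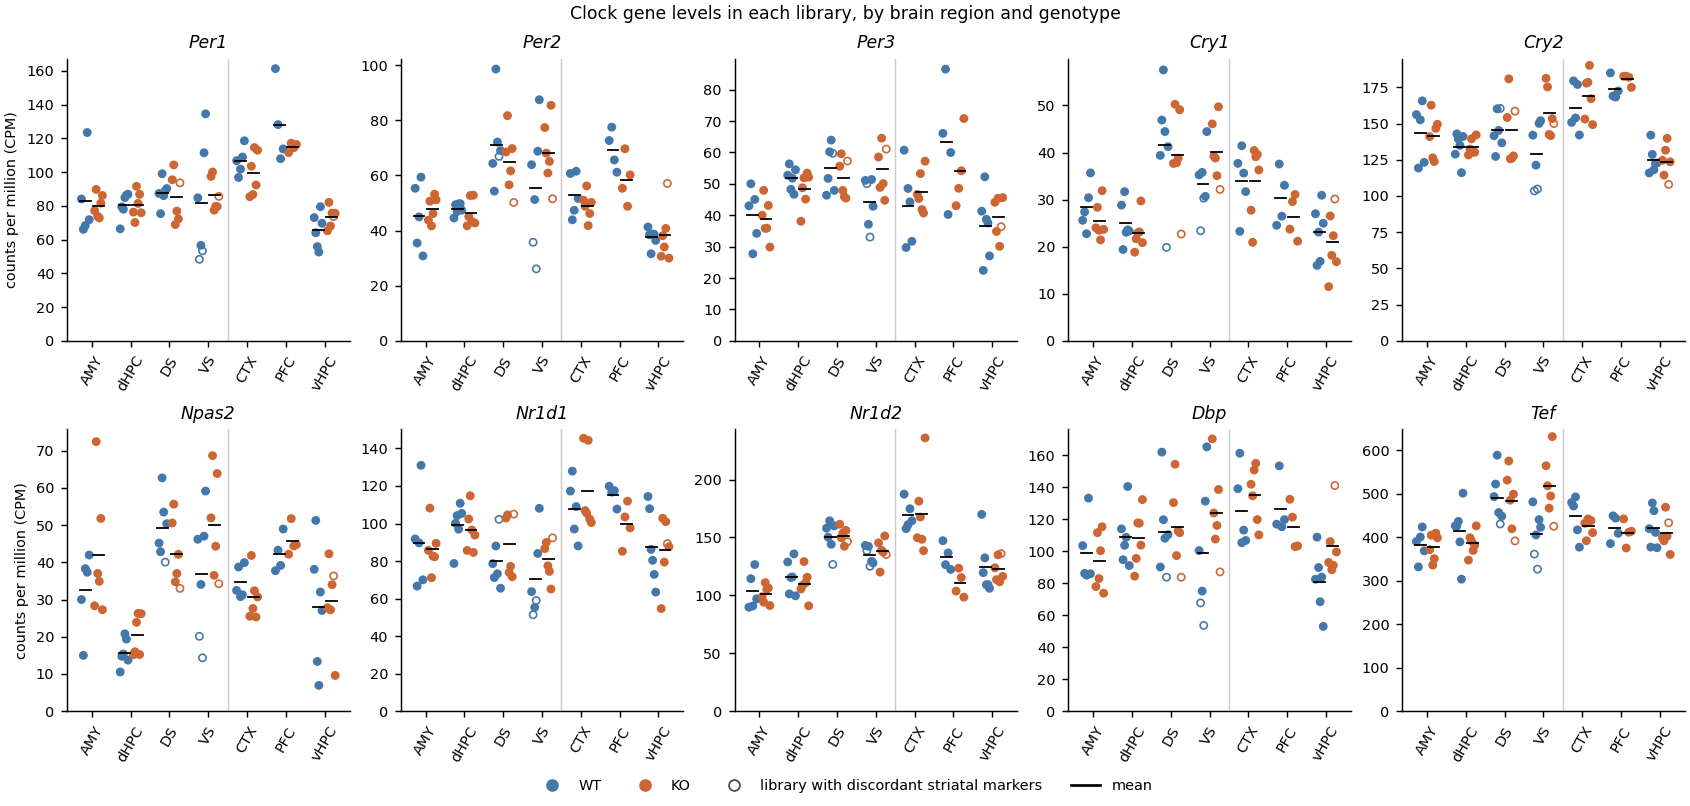
Level of each of the 10 clock genes (y axis, CPM) in every library of the 7 regions (x axis), with WT in blue and KO in orange. A bar marks the mean of each genotype in a region, and hollow points mark the 6 libraries whose striatal markers go against their label. The vertical line separates the deeper from the shallower set of regions. Npas2 is lowest in the dorsal hippocampus, at 10.55 to 26.27 CPM, and among the deeper regions Cry1 and Per2 have their highest means in the striatal ones.

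Among the deeper regions, edgeR's quasi-likelihood test with Benjamini-Hochberg adjustment over 16058 genes put Npas2 lower in the dorsal hippocampus than in the dorsal striatum by a log2 difference of -1.32 ± 0.20 (SE; adjusted p = 4.06e-07). Against the ventral striatum the log2 difference was -1.18 ± 0.20 (edgeR, adjusted p = 3.27e-06), and the amygdala stood above the dorsal hippocampus by 0.99 ± 0.20 (edgeR, adjusted p = 0.000118). The amygdala did not pass the test against the dorsal striatum (-0.32 ± 0.20) or the ventral striatum (-0.18 ± 0.20), but without the 6 libraries Npas2 was lower there than in both, by -0.41 ± 0.17 and -0.43 ± 0.18 (edgeR, adjusted p = 0.0439 and 0.046). These p-values rest on the spread between the libraries of these mice. The fit had no term for the mouse, so each library was treated as independent. In bulk tissue, fewer cells that express a gene and less RNA in each such cell cannot be told apart.

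With all libraries every repressor had its highest mean among the deeper regions in the dorsal striatum. Without the 6 libraries Per1, Per2 and Cry2 were highest in the ventral striatum. With all libraries Cry1 and Per2 did not both pass the test between the dorsal hippocampus and the ventral striatum. There 3 of 10 members were lower in the hippocampus, Npas2 and Nr1d2 among them. Cry1 (chr10:85131700-85185064, minus strand), a repressor of the clock dimer, stood at 40.47 ± 10.8 CPM in the dorsal striatum and 36.74 ± 7.44 CPM in the ventral striatum, against 26.78 ± 4.42 CPM in the amygdala and 23.91 ± 4.06 CPM in the dorsal hippocampus. In the dorsal striatum the discordant libraries of female WT mouse 23 and male KO mouse 10 held 19.85 and 22.68 CPM, and the other 10 lay between 37.67 and 57.54 CPM (44.31 ± 6.58 CPM). Cry1 was lower in the dorsal hippocampus than in the dorsal striatum by -0.72 ± 0.13 on the log2 scale (edgeR, adjusted p = 6.94e-06), and this became -0.88 ± 0.10 without the 6 libraries. Per2, a core gene of the repressing limb, stood at 67.81 ± 12.9 CPM in the dorsal striatum, 61.81 ± 18.4 CPM in the ventral striatum, 47.18 ± 3.77 CPM in the dorsal hippocampus and 46.61 ± 8.54 CPM in the amygdala. The amygdala and the dorsal hippocampus did not differ beyond their spread for either gene, with log2 differences of 0.11 ± 0.13 for Cry1 and -0.07 ± 0.14 for Per2. Per3, a period paralog that is less central to the oscillator, was lowest in the amygdala, at 39.32 ± 7.24 CPM against 49.44 to 53.45 CPM in the other 3 deeper regions. Per1 and Cry2 passed no test among the deeper regions, with region means of 80.38 to 86.57 CPM for Per1 and 133.9 to 145.4 CPM for Cry2.

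The REV-ERB genes did not share an order. Nr1d2 ran from 102.3 ± 11.7 CPM in the amygdala over 113.1 ± 13.3 CPM in the dorsal hippocampus and 136.2 ± 9.08 CPM in the ventral striatum to 151.1 ± 10.4 CPM in the dorsal striatum. Each step in that order passed the test, including the step between the striatal regions (0.19 ± 0.05 on the log2 scale, edgeR, adjusted p = 0.0147). The amygdala and dorsal striatum differed by -0.58 ± 0.06 (edgeR, adjusted p = 1.18e-11). Nr1d1 (chr11:98767932-98775333, minus strand) had another order, with its highest mean in the dorsal hippocampus, 97.84 ± 10.8 CPM, and its lowest in the ventral striatum, 75.63 ± 17.2 CPM, a log2 difference of 0.47 ± 0.11 (edgeR, adjusted p = 0.000237). Of the output factors, Tef was higher in the dorsal striatum (486.4 ± 60.9 CPM) than in the amygdala (380.2 ± 30.9 CPM) and the dorsal hippocampus (399.5 ± 49.6 CPM). Dbp, at 96.05 ± 18.4 to 113.8 ± 25.2 CPM, passed no test among the deeper regions, but without the 6 libraries it was lower in the amygdala than in the dorsal striatum (-0.35 ± 0.11) and the ventral striatum (-0.37 ± 0.12; edgeR, adjusted p = 0.00767 and 0.00888).

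By counts, 5 of 10 members were lower in the amygdala than in the dorsal striatum and none was higher, where 53.3% of all genes tested passed in either direction and 26.1% were lower. Without the 6 libraries 7 of 10 members were lower there, where 59.1% of all genes passed and 30.7% were lower. Between the amygdala and the ventral striatum 6 of 10 passed (44.8% of all genes), of which only Nr1d1 was higher in the amygdala (0.26 ± 0.11, edgeR, adjusted p = 0.0448). Without the 6 libraries that call was lost (0.17 ± 0.11, edgeR, adjusted p = 0.212), and 7 members were lower in the amygdala, where 48.2% of all genes passed and 23.2% were lower. With single mice left out, the Nr1d1 call held for mice 1, 4, 10 and 24 and was lost for the others, and 3 members passed without mouse 6. The dorsal hippocampus differed from the dorsal striatum in 6 of 10 members (52.5% of all genes), from the ventral striatum in 4 of 10 (51.7%; 6 of 10 without the 6 libraries, beside 53.9% of all genes) and from the amygdala in 3 of 10 (37.9%). The striatal regions differed in Nr1d2 alone, 1 of 10 against 13.4% of all genes. Read against those backgrounds, the share of members called was below that of all genes in 4 of these 6 contrasts with all libraries, and in 2 of them without the 6 libraries.

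In the shallower regions, 9 of 10 members had their lowest mean in the ventral hippocampus, and Nr1d2 had its lowest in the prefrontal cortex (121.7 against 123.6 CPM). Per1, an early-response period gene, stood at 69.61 ± 8.97 CPM there (n = 12), with libraries below those of the prefrontal cortex (121.4 ± 17.2 CPM, n = 8) and at 102.6 ± 11.2 CPM in the cortex (n = 11). Of the 10 members, 7 were higher in the cortex than in the ventral hippocampus and none was lower, where 27.4% of all genes tested passed and 13.4% were higher. The log2 differences ran from 0.42 ± 0.10 for Nr1d1 over 0.44 ± 0.06 for Cry2, 0.45 ± 0.11 for Per2, 0.49 ± 0.08 for Nr1d2, 0.54 ± 0.11 for Dbp and 0.59 ± 0.08 for Per1 to 0.66 ± 0.14 for Cry1. In the prefrontal cortex 6 of 10 were higher than in the ventral hippocampus (28.4% of all genes passed, 14.1% higher), led by Per1 (0.76 ± 0.09, edgeR, adjusted p = 1.45e-07), Per2 (0.68 ± 0.11) and Per3 (0.62 ± 0.15). Npas2 (0.56 ± 0.18), Cry2 (0.45 ± 0.07) and Dbp (0.34 ± 0.12) were the others. The counts of 7 and 6 were the same without the 6 libraries. Between the cortex and the prefrontal cortex 2 of 10 passed (36.1% of all genes): Nr1d2, at 169.7 ± 26.3 against 121.7 ± 16.1 CPM, was higher in the cortex by 0.55 ± 0.09 (edgeR, adjusted p = 2.5e-05), and Cry1 by 0.39 ± 0.15 (edgeR, adjusted p = 0.0398). The Cry1 call was lost when mouse 1, 3, 4, 5, 6, 10 or 12 was left out. Without the 6 libraries 2 passed as well.

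Other genes of the clock were counted beside all genes. Of 17 further clock genes, among them Clock, Arntl, the ROR genes, Hlf, Bhlhe40, Bhlhe41 and Ciart, 9 passed between the amygdala and the dorsal striatum (53.3% of all genes), 3 of them higher in the amygdala, and 8 between the dorsal hippocampus and the dorsal striatum (52.5% of all genes), 3 higher in the hippocampus. Between the cortex and the ventral hippocampus 6 of the 15 with enough counts passed (27.4% of all genes), all higher in the cortex. Hlf, the PAR-bZIP paralog of Dbp and Tef, was lower in the amygdala than in the dorsal striatum by -0.99, and Ciart, a repressor of the clock dimer, by -1.22. Hlf and Ciart were picked for mention after their values were seen. Rorb, a ROR gene that also marks cortical layers and is on the list of cortical markers used here, was higher in the cortex than in the ventral hippocampus by 1.71. The summed level of Vip, Avp, Nms, Prok2, Rgs16, Hcrt and Pmch, listed here as markers of suprachiasmatic or hypothalamic tissue, reached at most 86.89 CPM in 6 regions. Its medians were 67.21 and 70.45 CPM in KO and WT cortex, above the 51.31 and 63.3 CPM of KO and WT amygdala. In the amygdala it ran from 25.59 to 1493 CPM, with male WT mouse 12 at the top, and the summed choroid plexus markers there reached 9060 CPM in female KO mouse 5. Choroid plexus markers were also high in single libraries elsewhere, up to 6565 CPM in the dorsal striatum, 4794 CPM in the dorsal hippocampus and 1127 CPM in the cortex, and reached at most 112.9 CPM in the ventral striatum, 94.98 CPM in the ventral hippocampus and 76.22 CPM in the prefrontal cortex. The part of these markers in the levels of the members was not tested.

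Within the striatum, the levels of the members were set beside the summed striatal markers of the same libraries. For values of r only the 10 dorsal and 9 ventral striatal libraries on the side of the threshold that their label gives were used for this, since the others form a separate set, and each value was taken as a difference from the mean of its sex and genotype. In the dorsal striatum Cry1 had a Pearson r of 0.965 and a Spearman rho of 0.903 with the marker sum (exact permutation within groups, p = 0.00694 for r, the smallest that 144 orders give, and 0.0139 for rho). Over 11699 genes the adjusted permutation p for r was 0.267. Without the 2 mice farthest from the median of the marker sum, r was 0.924. All 10 members had a positive r there, with a median of 0.642, beside a median of -0.168 over all genes. In the ventral striatum 9 of 10 did, with a median of 0.618 beside -0.159, led by Per2 (0.878), Npas2 (0.859) and Cry1 (0.782), and without the 2 mice farthest from the median these stood at 0.761, 0.815 and 0.418. No member and no gene passed the adjusted threshold in either region (0% of 11699 and of 11602 genes), but with 144 and 48 orders, the latter giving no p below 0.0208, such a call was hardly within reach. With all 12 libraries of each region, the discordant ones standing apart, 6 of 10 members had a positive r in the dorsal striatum, where 2 members and 8.32% of all genes passed, and all 10 in the ventral striatum, where 5 members and 10.9% of all genes passed. The part of the marker level in the levels of the members was not tested.

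**Figure D2:**
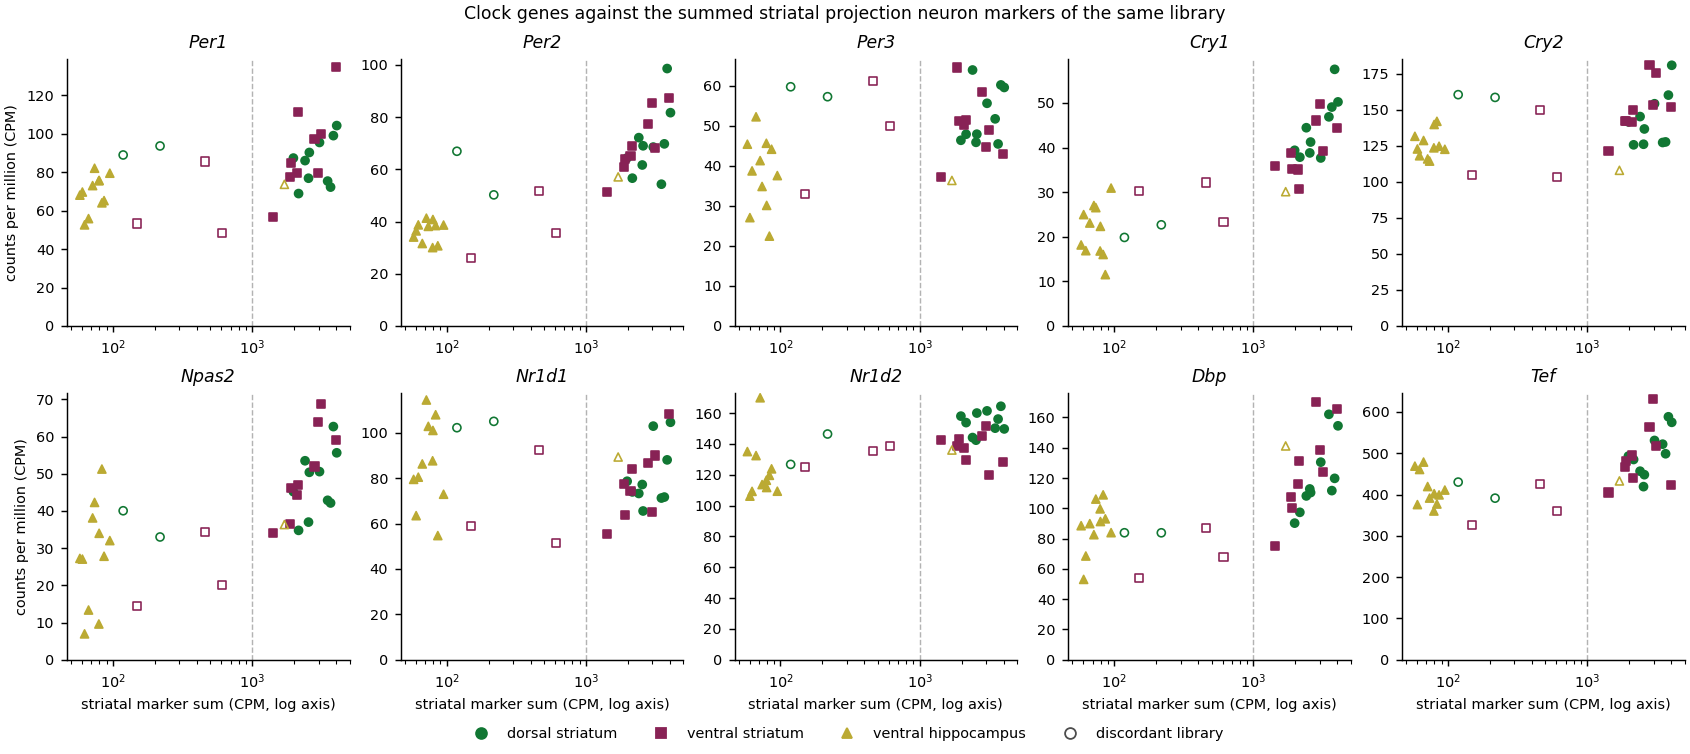
CPM of clock genes (y axis) against the summed CPM of 5 striatal projection neuron markers (x axis, log scale), 1 point per library of the dorsal striatum, ventral striatum and ventral hippocampus, with the dashed line at 1000 CPM. The dorsal striatal libraries of WT mouse 23 and KO mouse 10, at 118.4 and 217.9 CPM of markers, have the lowest Cry1 of that region, 19.85 and 22.68 CPM.

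Whether the loss of Acss2 altered the clock genes was tested in each region with sex as a term. In none of the 7 regions did any of the 10 members pass the test (edgeR, adjusted p of 0.651 or more for every member). The background was low as well: 11 of 11894 genes passed in the prefrontal cortex (0.0925%) and 1 gene in each of the other regions, which is 0.00657% for the amygdala, 0.00947% for the cortex, 0.0069% for the dorsal hippocampus, 0.00689% for the dorsal striatum, 0.00929% for the ventral hippocampus and 0.00708% for the ventral striatum. The gene called in each of those other regions was lower in KO mice. In the prefrontal cortex the count of genes ran from 7 without mouse 11 to 102 without mouse 12 and was 76 without mouse 23, with no member among them. The striatal marker sum separated the genotypes there, at 367 to 976.7 CPM in the 4 KO libraries and 71.01 to 167.6 CPM in the 4 WT libraries. Summed oligodendrocyte markers had medians of 7123 and 2165 CPM, with overlapping ranges. The part of these markers in the prefrontal fits of KO against WT was not tested. The smallest p was that of Tef in the ventral striatum, which measured 424.8 to 630.9 CPM in KO mice (median 506.1) and 326.4 to 481.0 CPM in WT mice (median 413.7). These ranges overlapped, and the log2 KO/WT ratio was 0.35 ± 0.13 (95% interval 0.06 to 0.64, unadjusted p = 0.0201, edgeR, adjusted p = 0.651). Without the 3 discordant ventral striatal libraries it was 0.28 ± 0.12. In the ventral hippocampus Dbp had a ratio of 0.36 ± 0.17 (unadjusted p = 0.0475, edgeR, adjusted p = 0.966), which became 0.22 without the library of KO mouse 6. Over the members, the 95% intervals of the log2 ratio reached from -0.46 to 1.07 for the amygdala, from -0.56 to 0.52 for the cortex, from -0.40 to 0.80 for the dorsal hippocampus, and from -0.58 to 0.47 for the dorsal striatum. They reached from -0.77 to 0.42 for the prefrontal cortex, from -0.62 to 0.89 for the ventral hippocampus and from -0.44 to 1.17 for the ventral striatum, where Npas2 set the upper bound.

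**Figure D3:**
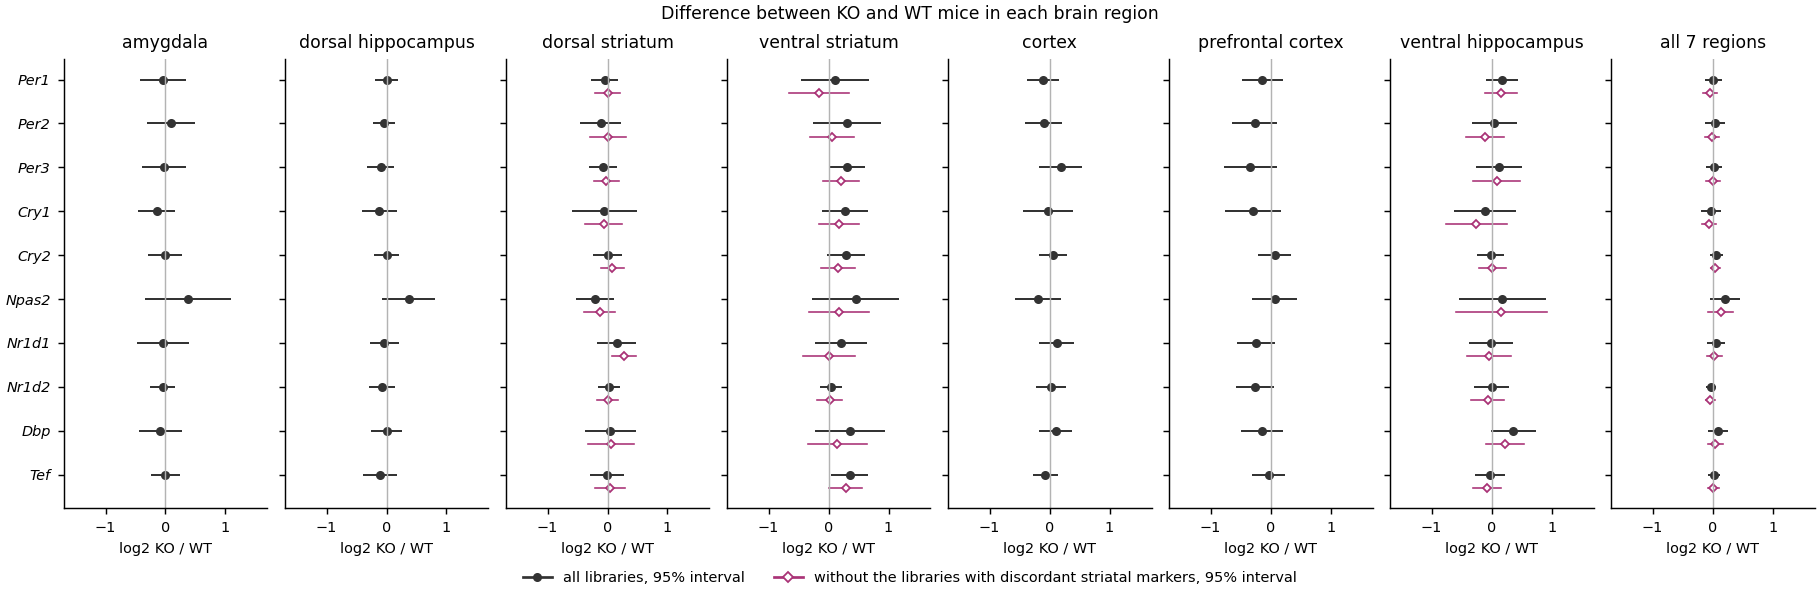
Log2 KO/WT ratio of each clock gene (x axis) with its 95% interval, by region and over all regions, from all libraries in black and without the 6 discordant libraries in magenta. In the ventral striatum all 10 estimates lie above 0 with all libraries, at a median of 0.30, and the median is 0.15 without 3 of them.

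In the ventral striatum all 10 members had a higher estimate in KO mice, although none passed the test, with a median log2 ratio of 0.30 beside 0.00 over all genes. Without the 3 discordant libraries 9 of 10 did, with a median of 0.15. In males the separate fit gave 0 of 10 members called (0% of 13623 genes), 5 of 10 with an unadjusted p under 0.05, where 1341 of all genes had one. Nr1d1 had the smallest p: KO mice 1, 10 and 2 measured 86.63, 92.36 and 89.95 CPM, and WT mice 12, 13 and 3 measured 55.28, 58.99 and 63.73 CPM. The KO libraries all lay above the WT libraries, and the log2 ratio was 0.63 ± 0.12 (edgeR, adjusted p = 0.493), while DESeq2 gave an adjusted p of 0.0444. Per1 measured 97.49, 85.62 and 100.1 CPM in the same KO mice and 56.62, 53.35 and 84.80 CPM in the WT mice, again without overlap. Cry2 was the third gene with separate ranges, at 150.0 to 181.3 against 104.8 to 142.0 CPM, so 3 of 10 members were separated upward, where 6.36% of all genes were (16.6% separated in either direction). With 3 libraries against 3 in males, an exact permutation test of 1 gene cannot give a two-sided p below 0.1. Tested on simulated data at this design, the fit for male ventral striatum recovered 0 of 100 differences of 0.5 on the log2 scale and 10 of 100 differences of 1.

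Other measures moved with the male ventral striatum as well. The striatal marker sum was 2801, 458.9 and 3140 CPM in KO mice 1, 10 and 2, and 1421, 149.9 and 1904 CPM in WT mice 12, 13 and 3. Without mice 10 and 13, with 2 libraries against 2, Nr1d1 kept a log2 ratio of 0.62 ± 0.15 and Dbp had 0.79 ± 0.20 (edgeR, adjusted p = 0.229 and 0.232), and 6 of 10 members had an unadjusted p under 0.05, where 1597 of 13594 genes had one. The 8 rapid activity genes Fos, Fosb, Junb, Arc, Egr1, Npas4, Nr4a1 and Dusp1 had a median log2 KO/WT ratio of 0.93 in males, 5 of 8 with an unadjusted p under 0.05 and none called. The part of the marker level and of the activity genes in the levels of the clock genes was not tested.

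In females 7 of 10 members had a higher mean in KO than in WT ventral striatum, and Per1, Nr1d1 and Dbp a lower one, with none called. Tef measured 466.5, 494.4 and 630.9 CPM in KO mice 4, 5 and 6 and 360.9, 440.2 and 422.5 CPM in WT mice 11, 23 and 24. It was the 1 member with separate ranges, where 5.46% of all genes were separated upward, and its log2 ratio was 0.34 ± 0.19. Without mouse 11, 4 of 10 members had an estimate above 0. Per1 in the ventral striatum measured 77.48, 79.75 and 79.61 CPM in KO mice 4, 5 and 6, within a narrow range, and 48.32, 111.5 and 134.6 CPM in WT mice 11, 23 and 24. The WT values thus lay on both sides of the KO values, with the discordant library of mouse 11 (609.2 CPM of striatal markers) lowest and that of mouse 24 (3975 CPM) highest. The log2 ratio was -0.37 ± 0.35 with all libraries, and -0.70 ± 0.14 without mouse 11 (edgeR, adjusted p = 0.759). In females the rapid activity genes had a median log2 ratio of -0.56, none called. The KO effect in females minus that in males was tested directly, and with all libraries it was -0.84 ± 0.32 for Nr1d1 (edgeR, adjusted p = 0.943), and no member and no gene passed (0% of 14116). Without the 3 discordant libraries it was -1.21 ± 0.26 for Per1, -1.07 ± 0.22 for Nr1d1 and -1.13 ± 0.29 for Dbp, each with an edgeR adjusted p of 0.367, and again no gene passed, although 1626 of 14127 genes had an unadjusted p under 0.05. Over all 7 regions the same difference was -0.34 ± 0.12 for Per1 (limma, adjusted p = 0.246) and -0.41 ± 0.11 without the 6 libraries (limma, adjusted p = 0.146). Per1 and Dbp were added to Nr1d1 in this paragraph after their values were seen.

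In the other regions and sexes the fits likewise called no member. Among the 13 fits by region and sex, the share of all genes called was 0.452% in the female prefrontal cortex (50 genes, 317 without mouse 23 and 3 without mouse 5), 0.0398% and 0.0103% in the female and male cortex, and 0.00996% and 0.00993% in the male and female ventral hippocampus. It was 0.00721% and 0.00707% in the male and female dorsal hippocampus, 0.00706% in the male amygdala and 0% in the other 5 fits. In those 5 fits the deleted gene Acss2 was not called either, although its KO and WT levels did not overlap. A count of 0 there thus says little about the members. In the male dorsal striatum Nr1d1 had the smallest p, at 102.9, 104.6 and 105.0 CPM in KO mice 1, 2 and 10 and 78.62, 88.03 and 73.23 CPM in WT mice 3, 12 and 13 (log2 ratio 0.41 ± 0.13, unadjusted p = 0.0148, not called by edgeR). It was the 1 member of 10 with separate ranges there, where 6.56% of all genes had them. With both sexes together, the KO and WT ranges of every member overlapped in each of the 7 regions.

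Over all 7 regions in 1 fit, limma-voom with the mouse as a block called 6 of 19555 genes between KO and WT (0.0307%) and none of the 10 members. Npas2 had the smallest p, with a log2 ratio of 0.20 ± 0.11 (95% interval -0.02 to 0.43, limma, adjusted p = 0.847), and 0.14 ± 0.10 without the 6 libraries. For the other 9 members the interval lay within -0.17 to 0.25. The sexes differed in none of the 10 members (24 of 19555 genes called, 0.123%), with Cry2 showing the smallest p at -0.06 ± 0.04 female minus male. Of the 17 further clock genes none passed between KO and WT over all regions, and Rora, which competes with the REV-ERBs for the ROR element, had the smallest p (-0.33 ± 0.12, limma, adjusted p = 0.787). None of 8 activity, 7 glucocorticoid response and 8 temperature response genes passed between KO and WT either. An unadjusted limma p under 0.05 was reached by 1, 4 and 0 of them, beside 1128 of 19555 genes. The 7 glucocorticoid response genes had a median log2 ratio of -0.13. Between the sexes 2 of the 8 temperature response genes were called, both lower in females, and none of the activity or glucocorticoid response genes.

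Whether the level of a clock gene followed the individual animal was tested by comparing mice within sex and genotype over their regions. Of the 10 members none passed the test for differences between mice (25 of 19555 genes, 0.128%, edgeR). The same test was run on simulated data at this design. In every group of sex and genotype a mouse was raised and another lowered by 0.5 on the log2 scale, in genes with higher counts. It recovered 95 of 100 such genes. Smaller shifts, or shifts in a single group, were not simulated, so the power for ranges like those of most members is not known. Cry1 had the smallest p (unadjusted p = 0.0144, edgeR, adjusted p = 0.513): mouse 12 lay above the mean of its group in 7 of 7 regions by an average of 0.14 on the log2 scale, mouse 24 above it by 0.21, and mouse 13 below it in all of its 6 regions by -0.17. Without the 6 libraries the unadjusted p of Cry1 was 0.0228. Differences between mice took a median of 19.08% of the variance within groups for the members, beside 15.59% over all genes and 16% that the degrees of freedom alone give. The range of mouse means was widest for Npas2, at 0.81 on the log2 scale from mouse 10 (-0.36) to mouse 2 (0.45), both male KO mice, and narrowest for Cry2, at 0.10. The median range over the members, 0.287, was below the 0.303 of all genes.

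**Figure D4:**
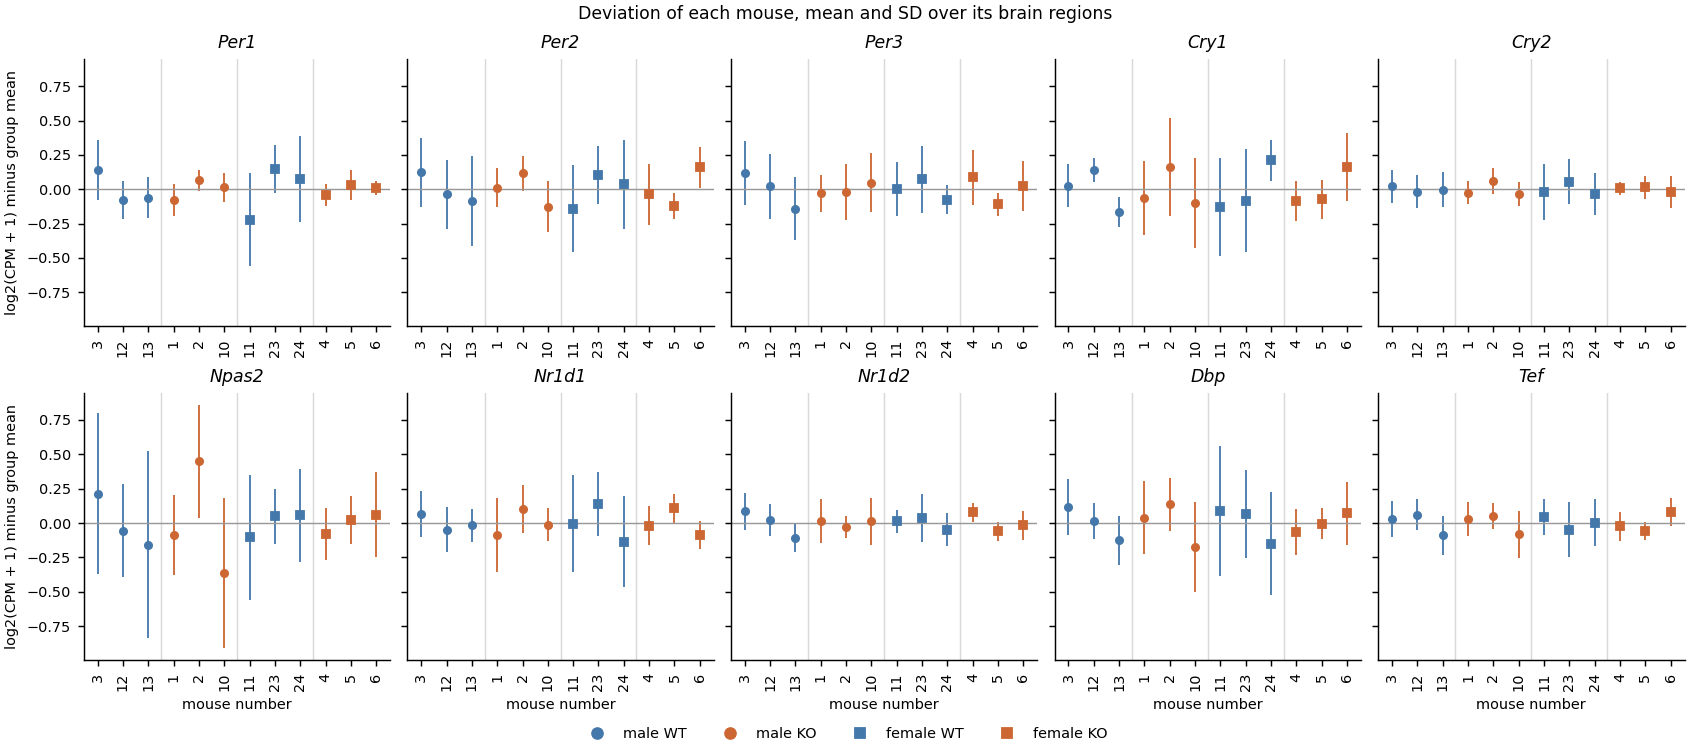
Mean log2 deviation of each mouse from its sex and genotype group over its regions (y axis), for each clock gene, with the SD over regions as the bar and 1 point per mouse. Npas2 has the widest range, from -0.36 in mouse 10 to 0.45 in mouse 2, and Cry2 the narrowest, 0.10.

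Dbp (chr7:45705088-45710203, plus strand), a direct output of the E-box loop, served as the reference for how the other members varied between the 12 mice. All 9 had a positive Pearson r with Dbp over the mouse means, with a median of 0.448 beside -0.001 over all genes, of which 49.9% were positive. Npas2 (r = 0.687, rho = 0.601, permutation p = 0.0826 and 0.13) and Tef (r = 0.675, rho = 0.657, permutation p = 0.0424 and 0.0525) had the highest, and Per1 (0.068) the lowest. After adjustment over 19554 genes none passed (0%), and the smallest adjusted p of any gene was 0.659. Within single regions, Per2 (r = 0.947), Cry2 (0.959) and Tef (0.842) passed the adjusted permutation test with Dbp over the 12 libraries of the ventral striatum, as did 4.8% of 11676 genes. The median r of the members there was 0.859, and 0.703 over the 9 libraries left without the discordant ones, where no test was made. No gene passed in the other 5 regions tested (0%), where the median ran from 0.088 in the dorsal hippocampus and 0.094 in the cortex to 0.647 in the amygdala. The median over all genes was 0.155 in the dorsal hippocampus, 0.024 in the cortex and -0.124 in the amygdala. In the dorsal hippocampus the members thus lay below the median of all genes, and 6 of 9 had a positive r, where 57.01% of all genes did. Without mice 10 and 24, the farthest from the median of Dbp, r was 0.716 for Npas2, 0.692 for Tef and 0.302 for Per1. Without the 6 libraries 8 of 9 were positive, Nr1d1 was highest (0.823), and Npas2 and Tef stood at 0.336 and 0.345.

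Of genes outside the clock list with a mean of at least 5 CPM, Grm4 (0.965), Pantr1 (0.928), Usp2 (0.925), Pcid2 (0.914) and Iah1 (0.906) had the highest r with Dbp over the 12 mice, and Saraf (-0.944), Unc5d (-0.931), Pip5k1b (-0.907), Mblac2 (-0.900) and Ogfod1 (-0.897) the lowest. Usp2, which encodes a ubiquitin-specific protease, had 0.919 without the 6 libraries, 0.858 over the deeper regions and 0.935 over the shallower ones. The value of Pcid2 fell to 0.290 without the 6 libraries, and those of the others were 0.662 or more in size. Over the shallower regions alone Saraf had the opposite sign (0.216), and over the deeper ones Pcid2 did (-0.074). Among the 17 further clock genes Bhlhe41 had the highest r with Dbp (0.816) and Csnk1d, a kinase of the PER proteins, the lowest (-0.715), with adjusted permutation p of 0.694 and 0.705. None of the 17 passed the test between mice (edgeR), and Rorb had the smallest p (adjusted p = 0.0901).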

How the data were processed

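The authors deposited 1 table of raw gene counts per sex, with symbols as rows and libraries as columns, and these counts were used as deposited. Per the labels' protocols, poly(A) RNA was selected from 300 ng of total RNA. Per the submitters' processing notes, STAR 2.5.2a, SAMtools 1.1, HTSeq 0.6.1, DESeq2 and R 4.0.2 were used with GRCm38 (mm10). The strand setting of the counting is not given in the sources used here. Every column carried the title of 1 sample, and 0 columns were left without one. The members, gene lists and tests were chosen with earlier results of these data known. The rule for named genes covers all 10 members, test values for those called and otherwise for the smallest p, up to 6 further clock genes, and the 5 highest and 5 lowest genes by likeness to Dbp. Of the listed striatal markers 1 is not reported here and entered no sum.

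CPM was computed from column totals, and the pseudocount on the log2 scale was 1 CPM. Within a region, within a set of regions of like depth, and between mice, edgeR 4.0.16 (R 4.3.3) fitted quasi-likelihood models with TMM scaling after filterByExpr (minimum count 10, minimum total 15). Effects over all regions came from limma 3.58.1 (voom) with the mouse as a block. Calls are adjusted p-values (Benjamini-Hochberg over all genes tested) under 0.05. Likeness to Dbp used mouse means of deviations from the group mean and all 1296 orders of mice within groups. Mouse numbers pair libraries because the libraries of 1 number come from 1 animal. Over 210 such pairs the mean correlation of deviations was 0.017 (-0.401 to 0.612), and the consensus correlation in limma was 0.0153. DESeq2 1.42.0, other scalings, filters and pseudocounts, single mice left out and subsets of libraries were alternatives. The fits between mice, over all regions, between the striatal regions and of KO against WT in the ventral striatum (both sexes, and males) were also tested on simulated data, and the others use the same functions. Groups of 3, 2 or 1 libraries (23, 4 and 1 of 28) and the total count per library limit the precision.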

Additional observations from a re-analysis of the deposited data

Results flagged for a closer look

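In 140 groups of 4 to 6 libraries (1 member, 1 region, 1 genotype), 3 single libraries stood far from the rest of their group by Dixon's criterion, which chance passes in about 1 of 20 groups. Cry2 in the prefrontal cortex measured 175.0 CPM in female KO mouse 6, below the 182 to 182.7 CPM of the other 3 KO mice. Dbp in the prefrontal cortex measured 153.5 CPM in female WT mouse 11, above the 115.4 to 119.9 CPM of the other 3 WT mice. Dbp in the ventral hippocampus measured 141.2 CPM in female KO mouse 6, above the 88.52 to 106.1 CPM of the other 5 KO mice, and this library is 1 of the 6 whose striatal markers (1703 CPM) went against the label.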

How the results depend on the processing

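Of the counts of called members, 226 were within 1.5 times the count reported and 8 were not. The tally includes the counts of members with a positive r with Dbp, which are not calls. For single mice left out it holds only the lowest and highest count. Every comparison between genotypes, sexes or mice had a reported count of 0, and a repeated 0 counts as unchanged, so the tally says little on stability. In the male ventral striatum DESeq2 called 1 member (Nr1d1) where edgeR called 0, and between mice the fit without a low-count filter called 1, with 1742 genes called in place of 25. Between the cortex and the prefrontal cortex the count was 1 without a filter, 1 with DESeq2 and 1 with the replicate block (mouse), and 1 to 3 when single mice were left out (lowest without mouse 3, 4, 5, 6 or 10, highest without mouse 1 or 24). Leaving out single mice gave 3 to 6 members between the amygdala and the ventral striatum (lowest without mouse 6) and 1 to 2 between the striatal regions (highest without mouse 24). With the replicate block the counts for the other contrasts between regions ran from 1 to 7, and Dbp between the prefrontal cortex and the ventral hippocampus was lost (edgeR, adjusted p = 0.0821). Over the 3 shallower regions alone the signs of Npas2 between KO and WT (-0.0097), of Cry2 between the sexes (0.0532) and of the likeness to Dbp of Per1 (-0.143) and Cry1 (-0.391) were reversed, and that of Cry1 was also reversed without the 6 libraries (-0.271). The cause was not tested. Of the members' log2 differences 407 kept their direction and call, 29 lost the call, 1 gained it and 2 reversed. The calls lost under the most alternatives were Nr1d1 between the amygdala and the ventral striatum, Nr1d1 between the dorsal hippocampus and the dorsal striatum, and Cry1 between the cortex and the prefrontal cortex. At 629635 to 1228828 counts per library the shallower regions hold Npas2 at as few as 7 counts. With 3 mice of each sex and genotype, effects within a sex were hardly detectable in the 1 such fit that was simulated. In that fit, of the male ventral striatum, 0 of 100 differences of 0.5 and 10 of 100 differences of 1 on the log2 scale were recovered. Its spread was taken from all libraries, the discordant ones of mice 10 and 13 included. For the other fits within a sex the reach was not simulated.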
